A study of Mus musculus with 6 samples.

Results

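The genes described here are 10 genes of the p53 pathway and of growth arrest, followed in cultured mouse lung endothelial cells with and without hydrogen peroxide (H2O2). They were taken by symbol from a fixed list of names: Trp53, Mdm2, Cdkn1a, Ccng1, Plk2, Plk3, Gadd45a, Gadd45b, Gadd45g and Btg2. This list was chosen with earlier results of these data known. All 10 were found among the 33006 genes of the count tables, and all 10 were among the 12924 genes that passed the filter on low counts. The cells were primary pulmonary endothelial cells of C57BL/6 mice, grown in an endothelial medium and treated at 80% confluence. The control group of 3 libraries received water, and the H2O2 group of 3 libraries received 300 uM H2O2, both for 6 hours. The libraries of a group are numbered 1 to 3, but the labels do not tell whether each is its own culture or animal, so a p-value here reflects the spread among the libraries alone, and that spread may be technical. H2O2 replicate 3 stood apart from its group: its chi-square over genes, divided by the degrees of freedom, was 9.13 and 11.7 against the other two H2O2 libraries, while all other pairs within a group were at 1.64 to 2.96.

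The protein p53, encoded by Trp53, is a transcription factor that is kept low by MDM2, a ubiquitin ligase that p53 itself induces. Damage to DNA and oxidants stabilise p53, mainly by slowing its breakdown and not by raising its mRNA, and p53 then drives genes that halt the cell cycle. Among these are Cdkn1a, which encodes the kinase inhibitor p21, cyclin G1 (Ccng1), the polo-like kinases Plk2 and Plk3, Gadd45a and the antiproliferative gene Btg2. Several of these genes, and their relatives Gadd45b and Gadd45g, also respond to growth factors and cytokines without p53.

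With H2O2, 4 of the 10 genes fell and 0 rose. The largest change was that of Gadd45a, a stress sensor that binds PCNA and the kinase MAP3K4, which fell from 27.6 ± 1.77 to 19.8 ± 1.45 CPM (normalised counts scaled to a common library size; mean ± SD, n = 3 each), or 1.40-fold. Plk2 fell 1.27-fold, Plk3 1.24-fold and Mdm2 1.09-fold, and the call of Mdm2 was lost under some other tests and without some libraries. Trp53, Cdkn1a, Ccng1, Gadd45b, Gadd45g and Btg2 did not pass the test. Across all genes tested, 10.8% were lower and 9.7% were higher at the same threshold, an adjusted p under 0.05 (quasi-likelihood test of edgeR, Benjamini-Hochberg over all genes). At an unadjusted p under 0.05, 5 of the 10 genes were lower, Trp53 being the fifth, and 0 were higher, against 16.8% lower and 14.7% higher over all genes. Since the 10 genes were chosen with earlier results of these data known, these shares are a description and not a test. Neither DESeq2 nor limma-voom called a gene of the 10 higher. Without H2O2 replicate 3 the same 4 genes were called, at log2 fold changes of -0.54 for Gadd45a, -0.33 for Plk2, -0.29 for Plk3 and -0.13 for Mdm2. The median log2 fold change was -0.11 over the 10 genes and -0.00 over all genes tested.

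**Figure D1:**
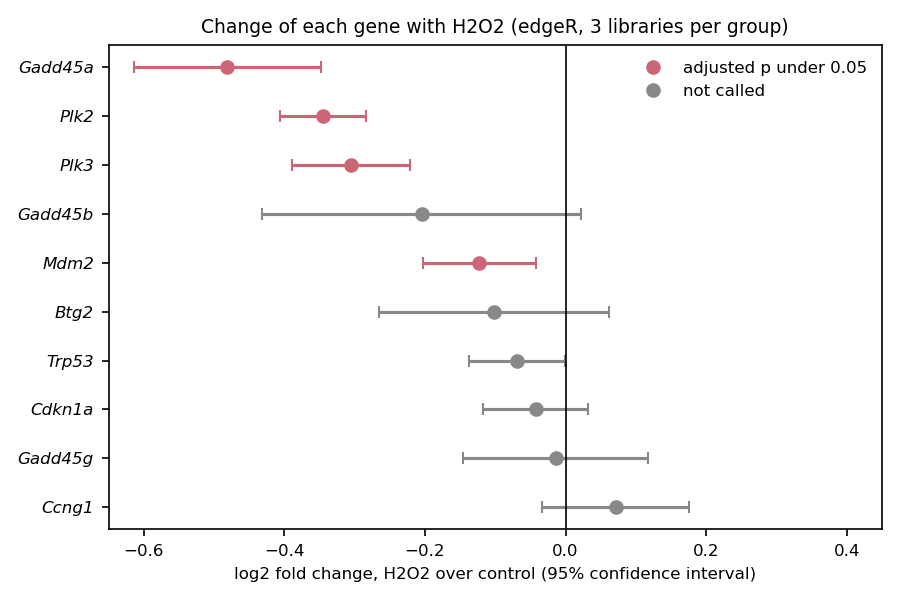
Log2 fold change of each of the 10 genes (H2O2 over control, x axis) with its 95% confidence interval; red points passed edgeR's test and grey points did not. The intervals of Gadd45a, Plk2, Plk3 and Mdm2 lie below 0, that of Trp53 ends just below 0 without passing after adjustment, and those of the other 5 genes span 0.

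The DNA around the annotated start of these genes was searched for the sequence that p53 binds. Promoter windows of 300 bases, from 250 bases before the annotated start to 50 after it (RefSeq, build GRCm38.p6, the assembly of mm10), were found for all 10 genes, with 2 windows for Cdkn1a. A p53 response element was searched as a pair of adjacent half-sites with no spacer and at most 1 letter of 20 off the consensus, and 0.0883% of the 32851 windows of all genes held one. Of the 10 genes, 2 did: Cdkn1a at its upstream start and Ccng1. Their elements are shown in capitals with 20 bases on each side, 5′ to 3′, because they are the 2 genes of the 10 with such a match in these windows.
Cdkn1a, chr17:29090908-29090967, plus strand: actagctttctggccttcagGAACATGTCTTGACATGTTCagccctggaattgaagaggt
Ccng1, chr11:40755442-40755501, minus strand: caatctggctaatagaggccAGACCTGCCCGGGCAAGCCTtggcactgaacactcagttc
Neither Cdkn1a nor Ccng1 passed the test. A match to the letters is a description and not a measured binding site, and elements farther from the start, such as the known one in the first intron of Mdm2, lie outside these windows.

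The windows of the 4 genes that fell are shown next, because these are the genes called. Capitals mark half-sites of the cAMP response element (TGACG, or CGTCA on the other strand) and p53 half-sites without a mismatch.
Gadd45a, chr6:67037358-67037657, minus strand: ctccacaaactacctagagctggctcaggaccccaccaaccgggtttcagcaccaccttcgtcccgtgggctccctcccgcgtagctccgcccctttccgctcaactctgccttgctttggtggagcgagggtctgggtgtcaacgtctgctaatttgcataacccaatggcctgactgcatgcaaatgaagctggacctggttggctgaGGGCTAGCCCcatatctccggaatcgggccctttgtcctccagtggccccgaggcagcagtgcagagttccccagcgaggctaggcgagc
Plk2, chr13:110394794-110395093, plus strand: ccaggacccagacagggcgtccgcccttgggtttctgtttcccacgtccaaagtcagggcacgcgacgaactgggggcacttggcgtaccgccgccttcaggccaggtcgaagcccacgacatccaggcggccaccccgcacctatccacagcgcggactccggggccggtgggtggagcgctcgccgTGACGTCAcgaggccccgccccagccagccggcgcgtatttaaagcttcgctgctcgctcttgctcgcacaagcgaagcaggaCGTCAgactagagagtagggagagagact
Plk3, chr4:117133914-117134213, minus strand: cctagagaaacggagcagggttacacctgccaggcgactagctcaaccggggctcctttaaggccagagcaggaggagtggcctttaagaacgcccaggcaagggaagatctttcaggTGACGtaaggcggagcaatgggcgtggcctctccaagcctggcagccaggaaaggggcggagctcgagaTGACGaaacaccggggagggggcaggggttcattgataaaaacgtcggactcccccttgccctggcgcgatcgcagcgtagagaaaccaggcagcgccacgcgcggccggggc
Mdm2, chr10:117710709-117711008, minus strand: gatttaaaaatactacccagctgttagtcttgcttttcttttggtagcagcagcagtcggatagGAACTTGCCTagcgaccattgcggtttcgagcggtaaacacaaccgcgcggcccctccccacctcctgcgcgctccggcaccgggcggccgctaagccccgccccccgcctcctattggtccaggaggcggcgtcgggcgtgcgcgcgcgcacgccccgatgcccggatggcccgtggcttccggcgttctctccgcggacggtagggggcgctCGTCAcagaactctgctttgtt
Among these 4 windows, those of Plk2, Plk3 and Mdm2 held the cAMP half-site, which 20.8% of all windows hold, and those of Gadd45a and Mdm2 held a p53 half-site, which 8.36% of all windows hold. Both also occurred before genes that did not pass: the p53 half-site in Trp53, Cdkn1a and Ccng1, and the cAMP half-site in Btg2.

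The full palindrome TGACGTCA, found in 1.79% of all windows, occurred in Plk2 and in Btg2, where it is shown with 20 bases on each side. The pair is set out because the same 8 letters stand before a gene that fell and before one that did not pass.
Plk2, chr13:110394962-110395009, plus strand: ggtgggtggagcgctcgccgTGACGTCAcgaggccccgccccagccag
Btg2, chr1:134079294-134079341, minus strand: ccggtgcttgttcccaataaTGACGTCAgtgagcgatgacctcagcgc
The AP-1 site TGANTCA (7.81% of all windows, both strands) occurred in 0 of the 10 genes, the CCAAT box CCAAT in 7 (37.4% of windows) and the GC box GGGCGG in 7 (35.7% of windows). No match says only that these letters are not in this window.

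Depth was 22455388 to 27618679 gene counts per library, and the 10 genes took between 152 counts (Gadd45b in H2O2 replicate 3) and 6267 counts (Plk2 in control replicate 1) in a library. Within each group, every pair of libraries was further apart than counting noise alone gives. The 8 endothelial markers fixed for the check (among them Pecam1, Cdh5, Kdr and Tek) summed to 3841 to 3971 CPM in controls and 4086 to 4119 CPM with H2O2, and Pecam1, Tek and Emcn were called higher. Epithelial markers (4 genes) summed to at most 0.157 and 0.192 CPM, with Sftpc and Scgb1a1 at 0 in all 6 libraries, and mesothelial markers (3 genes) to at most 0.558 and 0.423 CPM. Leukocyte markers (4 genes) summed to 157 to 163 CPM in controls and 162 to 169 CPM with H2O2, nearly all of it Cd68, while Ptprc had at most 1 count and Adgre1 and Cd3e had 0. Fibroblast and mural markers (6 genes), led by Dcn, summed to 30.1 to 32.9 CPM and 27.8 to 31.7 CPM. Their part in the results below was not tested. In such bulk libraries, fewer cells that express a gene and less RNA per cell cannot be told apart.

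Levels of different genes are compared per kilobase of annotated exon (CPM per kb, GENCODE M21). In controls the highest of the 10 was Plk2 at 55.3 ± 0.586 CPM per kb, followed by Trp53 at 40.8 ± 1.54, Cdkn1a at 35.5 ± 1.53 and Plk3 at 24.2 ± 0.615 (SD, n = 3 each). Gadd45g stood at 18.4 ± 0.781 CPM per kb, Gadd45a at 15.7 ± 1.00, Mdm2 at 13.2 ± 0.388 and Ccng1 at 11.3 ± 0.412. Gadd45b (4.77 ± 0.211) and Btg2 (4.25 ± 0.180) were the lowest. In this order no gene's control libraries overlapped those of the next. The place of Gadd45a in the order is uncertain. A gene on the other strand covers 19.1% of its exon bases, and how reads there were counted is not known. By level per kb, Plk2 lay at percentile 91.7 of the tested genes and Btg2 at 38.5. With H2O2, Gadd45a was at 11.2 ± 0.823 CPM per kb, where its libraries overlapped those of Mdm2 and Ccng1.

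**Figure D2:**
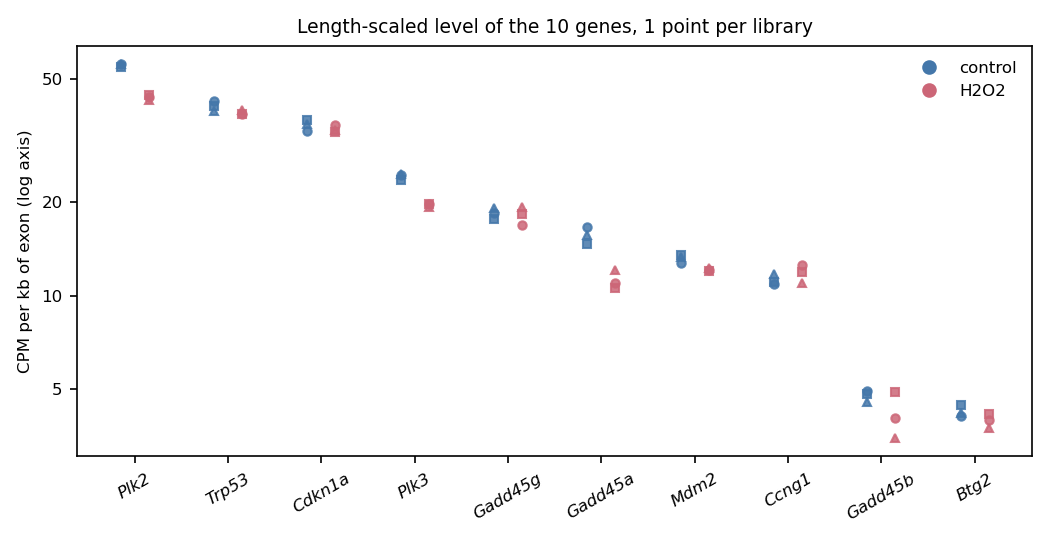
Level of the 10 genes in CPM per kb of exon (y axis, log scale), 1 point per library, with controls in blue and H2O2 in red and the replicate number given by the marker shape. Plk2 is the highest and Btg2 the lowest in controls, and the groups are apart for Plk2, Plk3, Gadd45a and Mdm2.

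Of p53 and its ligase, Mdm2 passed the test and Trp53 did not. Trp53 (chromosome 11, 69580359 to 69591873, mm10, plus strand) measured 171, 165 and 159 CPM in the 3 controls and 155, 156 and 161 CPM with H2O2. The lowest control lay below the highest H2O2 library, so the groups overlap. The log2 fold change was -0.07 (SE 0.0332, 95% interval -0.14 to -0.00), with an unadjusted p of 0.0473 and an adjusted p of 0.153. Mdm2 (chromosome 10, 117688875 to 117710758, minus strand) measured 64.9, 68.6 and 67.9 CPM in controls and 61.5, 61.1 and 62.4 CPM with H2O2. All 3 H2O2 libraries were below all 3 controls, and the fall was 0.12 on the log2 scale (SE 0.0393, adjusted p = 0.0263). DESeq2's test did not call Mdm2 (adjusted p = 0.0771), nor did fits that left out control replicate 2 (0.129), control replicate 3 (0.0975), H2O2 replicate 1 (0.0823) or H2O2 replicate 2 (0.0820), or one with a correction for exon length and GC (0.0546). The log2 values of these fits ran from -0.12 to -0.11.

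Neither of the 2 genes with a p53 element in the window passed. Cdkn1a (chromosome 17, 29090976 to 29100727, plus strand) measured 120.1, 131 and 127 CPM in controls and 126, 119.7 and 122 CPM with H2O2. The ranges overlap, and the log2 fold change was -0.04 (SE 0.0362, 95% interval -0.12 to 0.03, adjusted p = 0.456). A gene model on the other strand, whose symbol is not among the genes counted, shares 7.68% of the exon bases of Cdkn1a. Ccng1 (chromosome 11, 40748552 to 40755311, minus strand), whose cyclin recruits the phosphatase PP2A, measured 38.5, 39.03 and 41.2 CPM in controls and 44.0, 42.0 and 38.7 CPM with H2O2. It was the one gene of the 10 with a positive log2 fold change (0.07, SE 0.0507, 95% interval -0.03 to 0.18, adjusted p = 0.361), and H2O2 replicate 3 lay among the controls.

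The polo-like kinases Plk2 and Plk3, which act in the response to stress and around entry into S phase, both fell. Plk2 (chromosome 13, 110395046 to 110400844, plus strand) measured 249.8, 245 and 250.01 CPM in controls and 197, 199 and 191 CPM with H2O2. All H2O2 libraries were below all controls, and the log2 fold change was -0.35 (SE 0.0295, adjusted p = 1.91e-09). Plk3 (chromosome 4, 117128655 to 117133963, minus strand) measured 62.1, 59.5 and 62.3 CPM in controls and 49.96, 50.03 and 48.9 CPM with H2O2. No libraries overlap here either, and the log2 fold change was -0.30 (SE 0.0408, adjusted p = 3.73e-06). Both genes were called in all 6 fits that left out 1 library, with log2 values of -0.35 to -0.33 for Plk2 and -0.33 to -0.29 for Plk3. Tctex1d4, on the other strand, shares 3.32% of the exon bases of Plk3 and had at most 2 counts in any library.

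The GADD45 genes encode small nuclear proteins that bind MAP3K4, PCNA and the CDK1 complex, and of the 3 genes Gadd45a passed. Gadd45a (chromosome 6, 67035096 to 67037457, minus strand) measured 29.4, 25.8 and 27.7 CPM in controls and 19.3, 18.6 and 21.4 CPM with H2O2. The lowest control was above the highest H2O2 library, and the log2 fold change was -0.48 (SE 0.0648, adjusted p = 4.09e-06). It was called in all 6 fits that left out 1 library, at -0.54 to -0.43. Of all genes tested, 1.45% had a log2 fold change as low as that of Gadd45a or lower. A noncoding gene on the opposite strand, E230016M11Rik, covers 19.1% of its exon bases and had 1 to 14 counts per library, against 502 to 737 for Gadd45a. Without a stated strand setting, reads in the shared stretch cannot be told apart.

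Gadd45b (chromosome 10, 80930073 to 80932204, plus strand), an early target of NF-kB and TGF-beta, measured 7.85, 7.70 and 7.21 CPM in controls and 6.43, 7.79 and 5.54 CPM with H2O2. H2O2 replicate 2 lay among the controls and the other two below them. The log2 fold change was -0.20 with a wide interval of -0.43 to 0.02 (adjusted p = 0.211), and without H2O2 replicate 2 it was -0.34 and passed (adjusted p = 0.0378), while without H2O2 replicate 3 it was -0.09. Gadd45g (chromosome 13, 51846678 to 51848468, plus strand) measured 21.7, 20.7 and 22.5 CPM in controls and 19.9, 21.6 and 22.7 CPM with H2O2. Its groups overlap, and the log2 fold change was -0.01 (95% interval -0.15 to 0.12, adjusted p = 0.911). Its sign depended on the libraries, from -0.06 to 0.04 over the fits that left out 1 library, and it was -0.10 with the correction for length and GC (adjusted p = 0.323).

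The share of each gene in the GADD45 group is a measure in which the library scaling cancels. The exon overlap of Gadd45a with the gene on the opposite strand makes the size of its share uncertain. Per kb, Gadd45a made up 41.5%, 39.5% and 39.8% of the 3 genes' sum in controls and 34.3%, 31.2% and 34.7% with H2O2. Gadd45g made up 47.4% ± 1.27 in controls and 54.2% ± 1.13 with H2O2, and Gadd45b 12.3% ± 0.769 and 12.4% ± 2.26 (SD, n = 3 each). The log2 ratio of Gadd45a to Gadd45g counts was 0.44, 0.32 and 0.30 in controls and -0.04, -0.21 and -0.08 with H2O2. The groups do not overlap, and an exact two-sided permutation test over the 6 libraries gave p = 0.1, the smallest that 3 against 3 libraries allow (0.2 adjusted over the 6 ratios computed). No ratio could therefore reach p under 0.05 in this design.

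The other 5 within-library ratios of counts set the p53 genes against each other. Plk2 to Cdkn1a went from 0.98 ± 0.0743 to 0.68 ± 0.0479 on the log2 scale without overlap, again at the smallest exact permutation p of 0.1 (0.2 adjusted). Plk3 to Plk2 moved by 0.04, from -2.02 ± 0.0215 to -1.98 ± 0.0106, also without overlap (exact permutation p = 0.1, 0.2 adjusted). Mdm2 to Trp53 was -1.30 ± 0.0903 in controls and -1.35 ± 0.0144 with H2O2, with overlapping libraries (exact permutation p = 0.4, 0.48 adjusted). Cdkn1a to Trp53 differed by 0.03 (exact permutation p = 0.8) and Ccng1 to Trp53 by 0.14 (exact permutation p = 0.2, 0.3 adjusted).

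Btg2 (chromosome 1, 134075170 to 134079120, minus strand), which slows the cell cycle and speeds the removal of mRNA tails through the CCR4-NOT complex, measured 11.3, 12.2 and 11.5 CPM in controls and 10.9, 11.4 and 10.3 CPM with H2O2. H2O2 replicate 2 lay above control replicate 1, so the groups overlap. The log2 fold change was -0.10 (SE 0.0793, 95% interval -0.26 to 0.06, adjusted p = 0.411). At 256 to 314 counts per library its SE was larger than that of Plk2 (0.0295), and its interval holds both no change and a log2 fold change of -0.26.

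**Figure D3:**
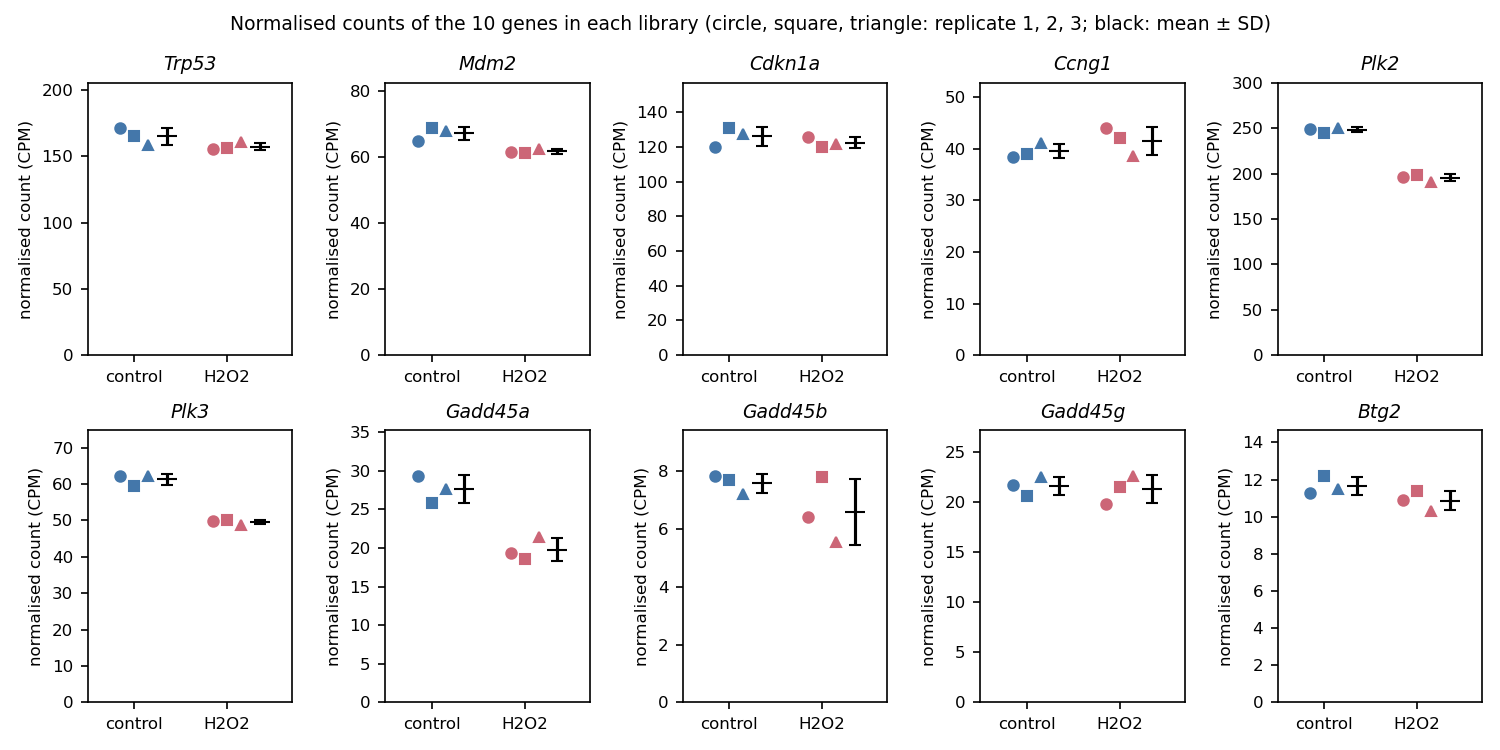
Normalised count (CPM, y axis from 0) of each gene in the 3 control libraries (blue) and the 3 H2O2 libraries (red), with the mean ± SD of each group in black. The H2O2 libraries lie below all controls for Mdm2, Plk2, Plk3 and Gadd45a and overlap them for the other 6 genes.

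Counted without a model, all 3 H2O2 libraries lay below all 3 controls for 4 of the 10 genes and above them for 0. Over all genes tested these shares were 18.2% and 16.5%. Among the 10 genes the coefficient of variation within a group was largest for Gadd45b with H2O2, at 17.2%.

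Of 21 genes that control p53, 19 were tested, 3 rose (15.8%) and 1 fell (5.26%), beside 9.7% and 10.8% of all genes tested, with a median log2 fold change of -0.02. Rpl5 (0.27, SE 0.0290) and Rpl11 (0.23, SE 0.0312), proteins of the large ribosomal subunit that can bind and inhibit MDM2, rose. Both have processed pseudogenes, which makes their counts uncertain. Atm, the kinase that signals broken DNA to p53, rose by 0.18 (adjusted p = 0.0318) with overlapping groups, and is named after its value was seen. Its call was lost by DESeq2's test (adjusted p = 0.0737) and on leaving out control replicate 1 (log2 fold change 0.10), control replicate 2, H2O2 replicate 1 or H2O2 replicate 2. Over the alternatives 2 to 3 of these genes were higher, Rpl5 and Rpl11 in all of them. The methyltransferase gene Prmt5 fell by 0.22 (SE 0.0340, adjusted p = 3.35e-05). Mdm4, the partner of MDM2, was at -0.06 (95% interval -0.22 to 0.11), and the p53 relatives Trp63 and Trp73 had 0 counts in all 6 libraries.

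Of 26 further targets of p53, 25 were tested, 2 fell (8%) and 1 rose (4%), with a median of -0.01. Over all genes tested, 10.8% fell and 9.7% rose. The proapoptotic gene Bbc3 (PUMA) went from 12.8 ± 0.596 to 10.7 ± 0.376 CPM, a log2 fold change of -0.25 (adjusted p = 0.0192). The nuclease gene Aen was at -0.15 (adjusted p = 0.0445) and Phlda3, which restrains AKT, at 0.15 (adjusted p = 0.0216). DESeq2's test called none of these 3 (adjusted p = 0.0930, 0.143 and 0.0587 for Bbc3, Aen and Phlda3). The call of Aen was lost in each of the 6 fits that left out 1 library, and that of Bbc3 without control replicate 2 or H2O2 replicate 2. Under each other scaling, a looser filter on low counts and the correction for length and GC (adjusted p = 0.136), Aen did not pass either. The call of Phlda3 was lost on leaving out any library but control replicate 2 and H2O2 replicate 3, and its value was 0.07 with the correction for length and GC (adjusted p = 0.305). Bax was at -0.08 and Pmaip1 at -0.00, and neither passed, though Bax was called lower with the correction for length and GC (-0.15, adjusted p = 0.00192).

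Next come lists of other genes of the cell cycle and of GADD45 partners. Their counts are to be read beside the shares over all genes tested, 9.7% higher and 10.8% lower. Of 7 genes listed as CDK inhibitors, 1 rose (14.3%), Cdkn2c at 0.13 (adjusted p = 0.0224). Its call was lost by DESeq2's test, with the correction for length and GC, and without control replicate 1 or 3 or H2O2 replicate 1. Cdkn1b, which encodes p27, was at -0.03 and did not pass. Among 11 G1 cyclins, CDKs and pocket proteins, 2 fell (18.2%) and 2 rose (18.2%). The cyclins Ccnd2 (-0.11) and Ccnd1 (-0.10) fell and the kinases Cdk2 (0.14) and Cdk4 (0.09) rose, the last named after its value was seen. The calls of Ccnd1, Ccnd2 and Cdk2 were lost without control replicate 2 or 3 or H2O2 replicate 1, that of Ccnd1 also without H2O2 replicate 3 and with the correction for length and GC, and that of Cdk2 also by DESeq2's test. The call of Cdk4 was lost on leaving out control replicate 1 or 3 or H2O2 replicate 1 or 3. Of the GADD45 partners, 0 of 11 passed by edgeR, DESeq2 or limma-voom. At an unadjusted p under 0.05 in edgeR's test, 16.8% of all genes tested were lower and 14.7% higher. Of the 11 partners, 2 were lower at that threshold (Pcna and Ccnb1). The most abundant, Pcna, was at -0.08 (adjusted p = 0.0603), and passed with the correction for length and GC (-0.11, adjusted p = 0.00716), without control replicate 1 (0.0122) and without H2O2 replicate 3 (0.0390). Ccnb1, at -0.07 (adjusted p = 0.117), passed in 1 of the 6 fits that left out 1 library.

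Among relatives of the 10 genes, the mitotic kinase Plk1 fell by 0.17 (SE 0.0306, adjusted p = 1.92e-04) and Plk4, which duplicates centrioles, was at 0.09 (adjusted p = 0.101), with Plk5 at 0 counts. Gak, the cyclin G associated kinase, fell by 0.14 (adjusted p = 0.00122), and Ccng2 was at 0.05 (adjusted p = 0.507). Of 8 tested genes of the BTG/TOB family and the CCR4-NOT deadenylases, 1 passed (12.5%, beside 10.8% lower over all genes tested). It was Tob2, at -0.11 (adjusted p = 0.0470). Its call was lost by DESeq2's test, under each other scaling and in each fit without 1 library except that without H2O2 replicate 3. Btg1 was at 0.02 and did not pass.

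**Figure D4:**
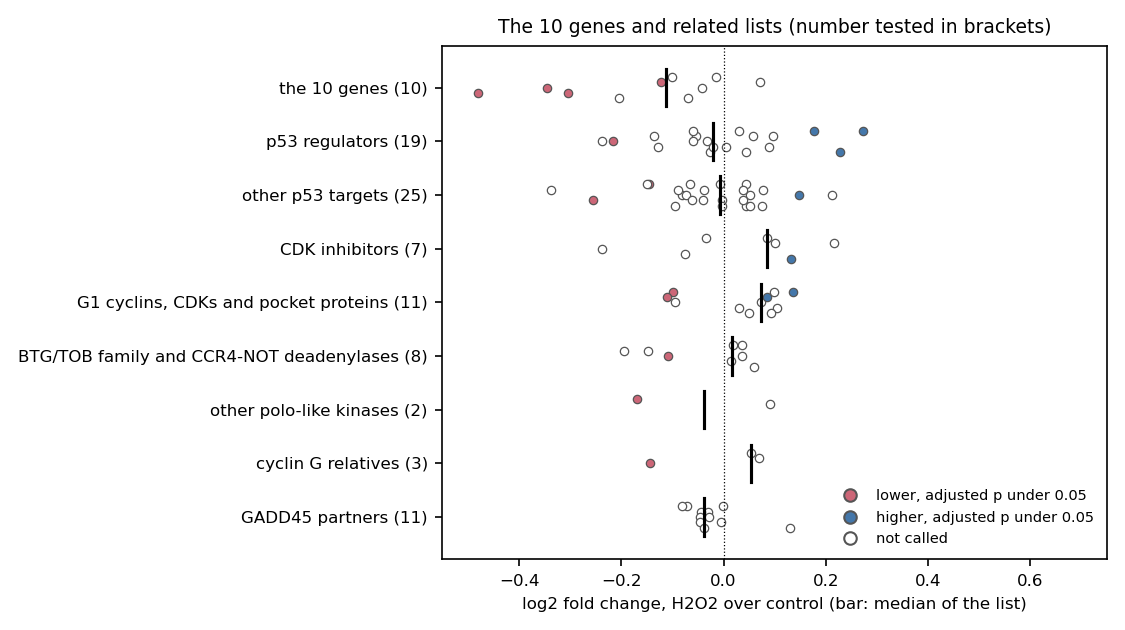
Log2 fold change (x axis) of every tested gene of the 10 and of each related list (rows, number tested in brackets); red is lower and blue is higher by edgeR's test, white is not called, and the bar is the median. The 3 lowest points of the first row are Gadd45a (-0.48), Plk2 (-0.35) and Plk3 (-0.30), and the lists' medians lie between -0.04 and 0.09.

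The genes whose log2 CPM followed that of Gadd45a most closely over the 6 libraries were Eif1, Unc119b and Eif1b, with Pearson r of 0.994, 0.994 and 0.991 among 8054 genes compared. These values describe both the difference between groups and the order within them, and the 6 points share their libraries. The log2 fold changes of these genes were smaller than that of Gadd45a, at -0.05 for Eif1, -0.12 for Unc119b and -0.15 for Eif1b, of which Eif1b passed (adjusted p = 0.0162). DESeq2's test did not call Eif1b (adjusted p = 0.062), and it was called in 2 of the 6 fits that left out 1 library.

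**Figure D5:**
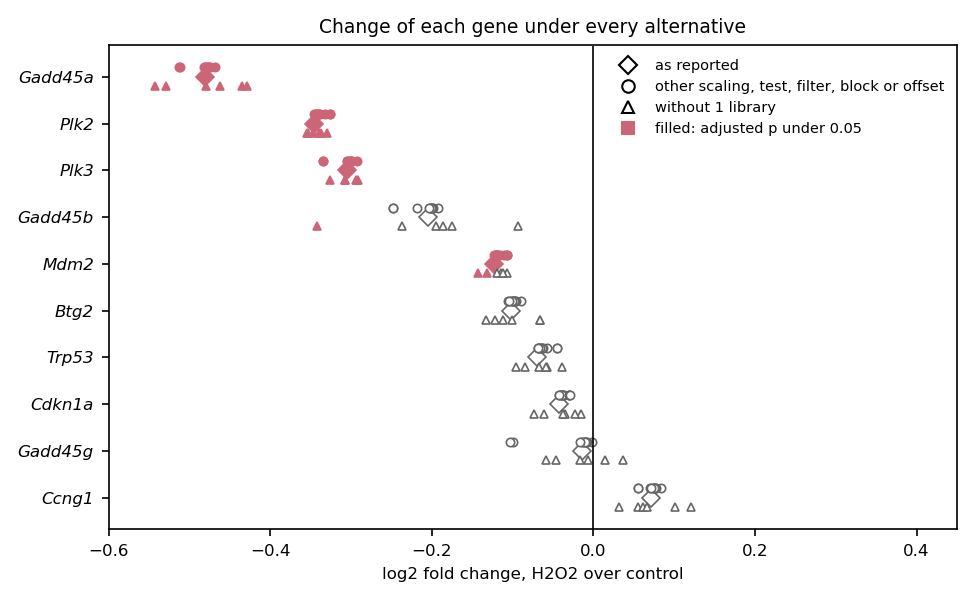
Log2 fold change of each gene (x axis) as reported (diamond), under other scaling, tests, filters, block or offset (circles) and without 1 library (triangles), filled where the adjusted p was under 0.05. Gadd45a, Plk2 and Plk3 are filled throughout, Mdm2 in part, and Gadd45b in 1 fit, without H2O2 replicate 2.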

How the data were processed

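Each library came as a deposited table of whole-number counts of reads for every gene symbol. The submitters' processing notes list build mm10 and the tools STAR 2.5.3, HTSeq, cutadapt, DESeq2 and bcl2fastq 2.17.1.14. For the annotation and the strand setting, nothing is given in the sources used here. The 5 HTSeq summary classes, of which reads without a feature were 4.76% to 5.46% of a library, were left out. Counts were tested with edgeR 4.0.16 (filterByExpr, TMM factors, quasi-likelihood test, treatment as the only term; limma 3.58.1, R 4.3.3), with Benjamini-Hochberg adjustment over all 12924 genes tested. SEs are the absolute log2 fold change over the root of the test's F, and CPM use TMM factors. Alternatives were other scalings, DESeq2 1.42.0, limma-voom, other filters, the replicate block, an offset for exon length and GC content (loess span 0.3; lengths for 98.9% of tested genes) and leaving out each library. All 10 genes are named; from each related list, up to 3 called genes of smallest p are named, or else the most abundant. Atm, Cdk4, Ccnb1, Mdm4, Bax, Pmaip1, Cdkn1b, Btg1, Plk4 and Ccng2 are named outside this rule, after their values were seen. The members and lists were chosen with earlier results of these data known. Intervals cover the spread between libraries and counting error only.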

Additional observations from a re-analysis of the deposited data

How the results depend on the processing

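Of the 10 genes, 3 to 4 were called lower and 0 higher over all alternatives. Gadd45a, Plk2 and Plk3 were called in each of them, with log2 fold changes of -0.54 to -0.43, -0.35 to -0.33 and -0.33 to -0.29. Over all genes, the count of lower calls was 924 (without H2O2 replicate 1) to 1313 without 1 library, against 1395 with all, and the count of higher calls was 891 to 1178, against 1254. Other scalings moved the split: upper-quartile factors gave 1455 higher and 1190 lower. No pairing by number was seen: same-numbered libraries' deviations correlated at 0.0022, 0.0299 and -0.0261, and not each library correlated best with its own number. With 3 libraries per group this check cannot exclude pairing, and the labels do not tell. With the replicate block, 4 of the 10 genes were lower, and over all genes 1444 were lower and 1294 higher; with the block and the length and GC offset, 4 of the 10 were lower. Pcna passed with the block (adjusted p = 0.0461) and with the block and the offset (0.00349). Gadd45b and Btg2 had the lowest counts of the 10 genes, 152 to 314 per library. Gadd45b also had the largest coefficient of variation within a group, 17.2% with H2O2. The part of depth in their results was not tested.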

Other observations

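The palindrome TGACGTCA shared by the promoter windows of Plk2 and Btg2 was in the windows of 346 tested genes. Of these, 38 (11%) were lower and 28 (8.09%) higher with H2O2, close to the shares over all genes tested (10.8% and 9.7%), and their median log2 fold change was -0.00. Of the 8 tested genes with a p53 element in their window, by the same definition as for Cdkn1a and Ccng1, 1 was lower and 1 was higher, with a median of -0.02. These counts were made after the members' windows had been seen.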
